A study of Mus musculus with 44 samples.

Results

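The 9 interferon-induced genes described here were the guanylate-binding protein genes *Gbp2*, *Gbp3* and *Gbp7*, the antiviral effector genes *Ifit1*, *Ifit3*, *Isg15*, *Bst2* and *Ifitm3*, and the transcription factor gene *Irf7*. They were chosen by name after *Gbp3* had been seen to be higher in exercised than in sedentary mice when ribosome-bound RNA and nuclei were isolated together, and the values of that comparison are given as a description, with no test. All 9 were among the 55335 genes of the deposited count table, and all 9 passed the filter on low counts in each comparison.

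Interferons are secreted signals of antiviral defence. Type I interferons act through the receptor Ifnar1-Ifnar2, and interferon gamma, the type II interferon, through Ifngr1-Ifngr2. Both receptors activate JAK kinases, and the STAT factors these phosphorylate bind a promoter element called the ISRE (interferon-stimulated response element, type I) or the GAS (gamma-activated site, type II). Ifit, Isg15 and Bst2 proteins are known mainly as products of the type I response, and guanylate-binding proteins, GTPases that act on intracellular pathogens, of the type II response. In brain, astrocytes, microglia and endothelial cells respond strongly to interferons, and neurons more weakly.

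The libraries came from male Emx1-NuTRAP mice, all carrying Emx1-IRES-Cre and the NuTRAP cassette, in which cells that have expressed Emx1 carry a label on their ribosomes and on the nuclear envelope. Emx1 marks mostly excitatory forebrain neurons, but its lineage also gives rise to some astrocytes, and the Cre was active from development on. Early-life exercise (ELE) mice had a running wheel from postnatal day 21 to 41 and sedentary mice had none, and hippocampi were collected the day after. Translating ribosome affinity purification (TRAP) was made either from both hippocampi of a mouse, with RNA and nuclei taken from the same homogenate (simultaneous isolation or SIT, 4 ELE and 4 sedentary mice) or from the left or right hippocampus processed for RNA alone (separate isolation; 3 ELE and 3 sedentary mice a side).

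Each of the 20 libraries held between 45895097 and 65767802 counts. For SIT the study compared 3 ELE libraries (mice NT6.303, TG7.4.1 and TG7.4.2) with 2 sedentary ones (NT6.305 and NT6.306) and left out NT6.304, NT7.2.3 and NT7.2.4. Values below are for the libraries compared unless the others are named, and exercise cannot be told apart from the first part of the mouse number for the TG7.4 and NT7.2 mice. The labelled cell type, neuron, was checked on marker lists. Summed over 8 excitatory neuron markers the level was 7170 to 11000 CPM (counts scaled to a common library size with TMM factors), over 8 astrocyte markers 2420 to 6390 CPM, over 7 oligodendrocyte markers 2380 to 5230 CPM, and over 7 lymphocyte markers at most 0.819 CPM in any library. Microglial markers, 12 in all, summed to 8.43 to 17.4 CPM except in NT7.2.3 (285 CPM) and NT7.2.4 (295 CPM), and 6 inhibitory neuron markers to 40.5 to 108 CPM except in the same libraries (816 and 854 CPM). The 10 endothelial markers summed to 5.89 to 11.8 CPM except in those libraries (34.2 and 35.4 CPM) and in the right sedentary library of TG7.3.3 (42.8 CPM).

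Most of these genes have, near their start, letters that match the element through which type I interferon acts. In the 300-base windows of RefSeq (GRCm38.p6, from 250 bases before to 50 after the start site), the core of the ISRE, GAAA, any 2 bases and GAAA on either strand, was found for 8 of the 9 genes, all but *Irf7*, and in 3.44% of all 32851 windows. The GAS, TTCNNNGAA, which reads the same on both strands, was found for *Bst2*, *Gbp7* and *Ifitm3* and in 8.30% of all windows. Such a match is a run of letters and says nothing of binding. The windows around the ISRE core are shown, with the matching bases in capitals, for the 3 guanylate-binding protein genes, which lie in the same cluster on chromosome 3, and for *Ifitm3* and *Isg15*, whose relations to *Gbp3* are given further on.
Gbp3 (chr3:142559992-142560021, plus strand): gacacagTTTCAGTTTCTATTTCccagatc
Gbp2 (chr3:142620594-142620623, plus strand): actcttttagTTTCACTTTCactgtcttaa
Gbp7 (chr3:142530273-142530302, plus strand): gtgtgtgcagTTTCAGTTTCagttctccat
Ifitm3 (chr7:141010723-141010752, minus strand): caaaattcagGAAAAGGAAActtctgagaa
Isg15 (chr4:156200871-156200900, minus strand): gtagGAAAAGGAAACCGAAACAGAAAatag
*Gbp3* has 2 such windows, and the one farther along the gene (chr3:142560106-142560405) held no match. In the other, 2 matches overlap, the first beginning 45 bases before the start site, and in *Isg15* 3 overlap. The match in *Gbp2* begins 59 and that in *Gbp7* 53 bases before the start site, while the match shown for *Ifitm3* lies 2 bases after it.

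All 9 genes were expressed at a low level. Per kilobase of exon, a scale on which genes can be compared, the mean over the 20 libraries was highest for *Ifitm3* (4.54 ± 2.06 CPM per kb, SD, n = 20), a membrane protein that blocks virus entry, and for *Bst2* (2.65 ± 0.814), tetherin, which holds budding virus at the cell surface. *Ifit3* followed at 1.36 ± 0.818 and *Gbp3* at 0.963 ± 0.518, which overlapped in their spread. *Isg15* (0.638 ± 0.409), *Gbp2* (0.526 ± 0.275) and *Gbp7* (0.372 ± 0.173) came next, and *Ifit1* (0.194 ± 0.181) and *Irf7* (0.119 ± 0.109) were lowest. Of neighbours in this order, *Bst2* and *Ifit3* differed by more than either SD, and the other pairs did not differ beyond the larger of their SDs. The order changed between groups: *Isg15* (0.929 CPM per kb) was above *Gbp2* (0.314), *Gbp7* (0.295) and *Gbp3* (0.274) in the sedentary SIT libraries compared, and at 0.277 below *Gbp3* (1.24) and *Gbp2* (0.676) in right sedentary mice. In bulk RNA, fewer cells of a type and less RNA per cell cannot be told apart.

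In SIT, *Gbp3* (ENSMUSG00000028268.14, chromosome 3 of GRCm38 from 142560026 to 142573209) was at 2.56, 2.96 and 5.33 CPM in the ELE mice NT6.303, TG7.4.1 and TG7.4.2, and at 0.846 and 0.946 CPM in the sedentary mice NT6.305 and NT6.306. The groups did not overlap, and ELE exceeded sedentary mice by a log2 fold change of 2.01 (standard error 0.429). Of the libraries left out, ELE mouse NT6.304 was at 2.45 CPM, close to the other ELE mice, and the sedentary mice numbered NT7.2.3 and then NT7.2.4 were at 3.95 and 1.22 CPM, so that with all 8 libraries the groups overlapped and the log2 fold change was 0.945. Within the 4 NT6 mice it was 1.48.
The neighbours of *Gbp3* did not show a gap of that size. *Gbp2* was at 1.96, 1.23 and 0.789 CPM in the same ELE mice and at 1.02 and 0.560 CPM in the sedentary ones, overlapping, with a log2 fold change of 0.75 (standard error 0.609). *Gbp7* was at 0.660, 1.84 and 2.29 CPM against 2.19 and 1.12 CPM, with a log2 fold change of -0.05 (standard error 0.567). *Gbp5* of the same cluster had a log2 fold change of -1.20 (standard error 1.14), and *Gbp2b* had no counts in any of the libraries compared. Of the 14 genes tested on a list of neighbours (12 of its 15 genes lie on chromosome 3 and 3 on chromosome 5), the 11 outside the 9 genes were not past the study's threshold, an unadjusted p under 0.05 and a fold change above 1.31, where 3.65% of all genes were. No call is given for the 9 genes in SIT, since they were chosen on it.

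Among the antiviral effectors in SIT, *Ifitm3* was at 1.64, 2.50 and 3.85 CPM in ELE and at 0.942 and 1.62 CPM in sedentary mice. The groups touched without overlapping, and the log2 fold change was 1.05 (standard error 0.470). *Bst2* was at 1.80, 3.29 and 3.02 CPM against 0.692 and 2.32 CPM, and the groups overlapped (log2 fold change 0.84, standard error 0.525). *Ifit1* and *Ifit3*, whose proteins bind viral RNA or its cap, were highest in a single ELE mouse, TG7.4.1, at 1.98 and 7.08 CPM. Without it the ELE mice were at 0.154 to 0.203 CPM for *Ifit1* and at 1.47 to 3.39 CPM for *Ifit3*, against 0.174 and 0.846 CPM and 1.51 and 2.65 CPM in sedentary mice. *Isg15*, a ubiquitin-like modifier, was at 0.135, 1.16 and 0.943 CPM against 1.02 and 0.386 CPM (log2 fold change 0.08, standard error 0.929). *Irf7*, which amplifies the type I response, had no counts in NT6.303 and NT6.306, which allows up to 0.0508 and 0.0579 CPM, and at most 0.673 CPM in the others.
The direction of some effectors turned with the libraries: within the 4 NT6 mice *Ifit1*, *Ifit3* and *Isg15* had log2 fold changes of -1.22, -1.04 and -1.59, while *Ifitm3* was at 0.97. Without TG7.4.1 *Ifit1* turned to -1.5 and *Isg15* to -0.39, without NT6.306 to -0.11 and -0.45, and without TG7.4.2 *Isg15* turned to -0.12. *Gbp7* turned to 0.32 without NT6.303 and to 0.51 without NT6.305. *Irf7* ranged from 0.961 to 2.53 over such fits that kept NT6.305, without which no sedentary library compared had a count of it. *Gbp3* ranged from 1.62 to 2.20 and *Ifitm3* from 0.69 to 1.5 when single libraries were left out. *Bst2* then ranged from 0.22 to 1.96, *Gbp2* from 0.35 to 1.24 and *Ifit3* from 0.22 to 1.4.
In all, 8 of the 9 genes had a positive log2 fold change in SIT, with a median of 0.84 against 0.001 over all 18238 genes tested. Of all genes 22.1% did not overlap between the groups. Because the members were chosen on this contrast, nothing is read from these counts. Red cell genes were lower in the ELE libraries (4 of 5 genes past the threshold, summed level 3.88 to 12.4 against 26.7 to 30.7 CPM), and so were choroid plexus genes (4 of 6 genes, 253 to 869 against 882 to 1040 CPM), while 0 of 12 microglial and 0 of 6 tested endothelial markers were past it. Their part in the values of the 9 genes was not tested.

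**Figure D1:**
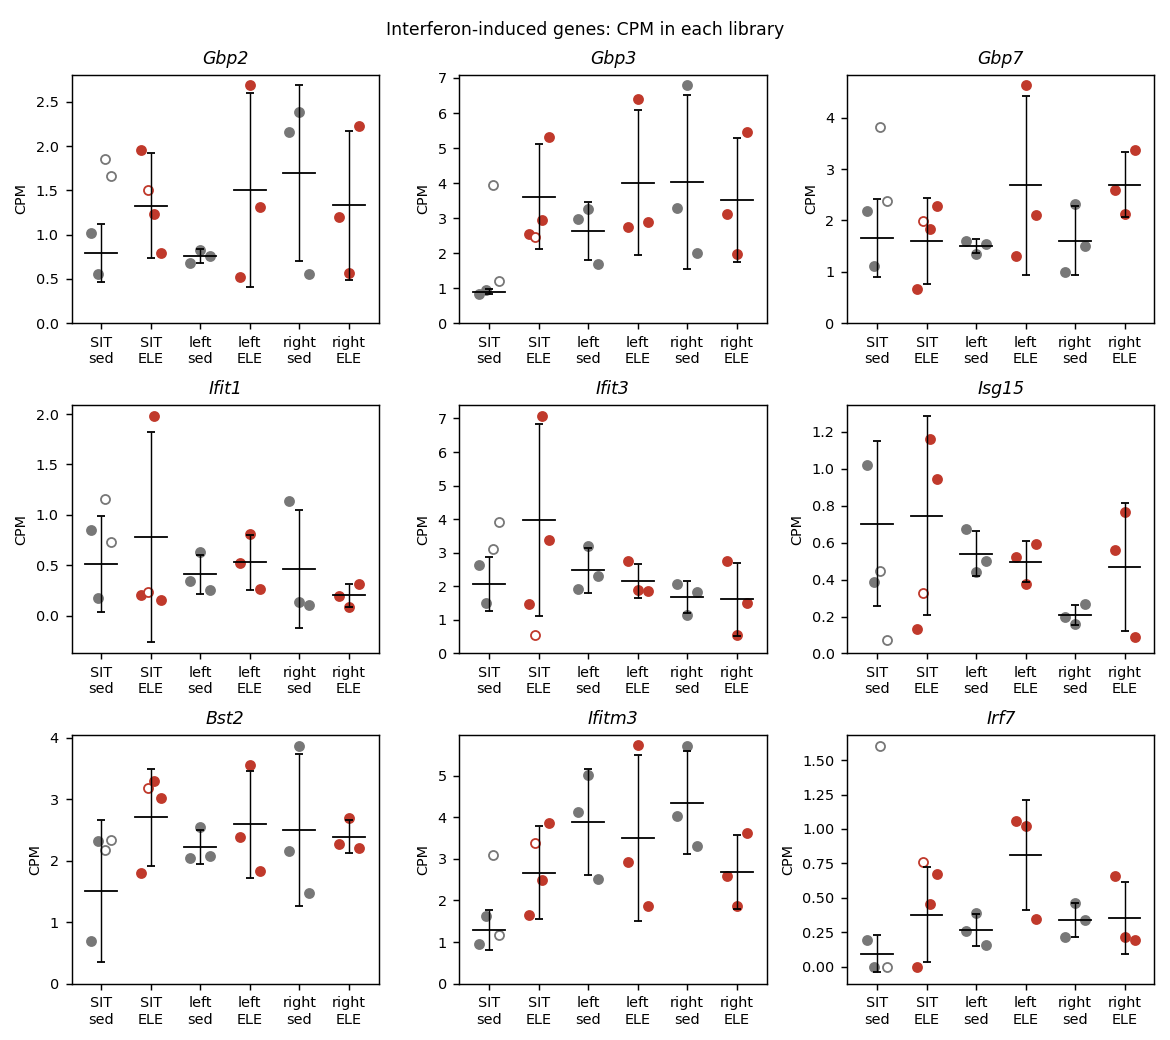
CPM of each of the 9 genes in each library, by isolation, side and exercise (grey sedentary, red ELE). Bars are the mean and SD over the libraries compared, and open circles are the 3 SIT libraries the study left out. For *Gbp3* the 2 sedentary SIT libraries compared lie at 0.846 and 0.946 CPM, below every other library, while ELE and sedentary libraries of the left and right overlap for each gene.

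The separately isolated libraries had no part in the choice of the genes, and exercise was tested in them with edgeR's quasi-likelihood test on each side and over both. No gene of the table had an adjusted p under 0.05 on the left or right, and 1 had over both sides, so that the calls below rest on unadjusted p-values. *Gbp3* did not pass in any of these fits. On the left it was at 2.76, 6.39 and 2.90 CPM in the ELE mice TG7.3.2, TG9.1.4 and TG9.2.2 and at 2.97, 3.25 and 1.70 CPM in the sedentary mice TG7.3.4, TG9.1.2 and TG9.2.4. The groups overlapped, with a single ELE mouse far above the rest, and the fit gave a log2 fold change of 0.60 (standard error 0.389, edgeR's adjusted p = 0.960), and 0.098 without that mouse, TG9.1.4. On the right it was at 3.13, 1.99 and 5.45 CPM in the ELE mice TG7.3.1, TG9.1.3 and TG9.2.1 and at 3.30, 6.80 and 2.01 CPM in the sedentary mice TG7.3.3, TG9.1.1 and TG9.2.3. Here a sedentary mouse was highest, and the fit gave -0.19 (standard error 0.458, edgeR's adjusted p = 1). Over both sides it was 0.20 with a 95% interval from -0.47 to 0.88 (adjusted p = 0.978, edgeR), and the exact permutation test with labels permuted within each side gave p = 0.665. Whether the effect of exercise differed between the isolations was not tested.

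*Gbp7* was the only one of the 9 past the threshold over both sides, where 2.01% of all 18810 genes tested were. It was at 1.30, 4.64 and 2.11 CPM in left ELE mice against 1.61, 1.35 and 1.54 CPM in left sedentary mice, and at 2.59, 2.12 and 3.38 CPM in right ELE mice against 1.0, 2.32 and 1.51 CPM in right sedentary mice. The groups overlapped on each side. Over both sides the log2 fold change reached 0.79 (standard error 0.287, edgeR's adjusted p = 0.919), and ELE mice had the higher mean on both sides, 2.69 ± 1.74 against 1.5 ± 0.137 CPM on the left and 2.7 ± 0.637 against 1.61 ± 0.663 CPM on the right (SD, n = 3). The exact permutation test within sides gave p = 0.05, with no adjustment for the number of genes. Without the left ELE mouse TG9.1.4 the log2 fold change was 0.50 and no longer past the threshold, while *Ifitm3*, at -0.69, then was. In SIT, where *Gbp3* was higher, *Gbp7* was not, and of 5612 different 100-base stretches of its transcripts 10.0% also occur in another gene, 9.59% in *Gm43802*, so that its counts are less certain.
*Gbp2* was at 0.522, 2.69 and 1.31 CPM in left ELE against 0.676, 0.831 and 0.762 CPM in left sedentary mice, and the same left ELE mouse, TG9.1.4, was highest. On the right it was at 1.20, 0.565 and 2.23 CPM in ELE and at 2.16, 2.38 and 0.557 CPM in sedentary mice. Its log2 fold change was 0.99 (standard error 0.551) on the left and -0.35 (standard error 0.595) on the right, and neither passed (adjusted p = 0.960 and 1, edgeR's quasi-likelihood test). Without TG9.1.4 the value on the left was 0.27, and leaving out single libraries on the right gave -0.95 to 0.02.

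*Irf7* was past the threshold on the left, the only one of the 9 there, where 2.07% of all 17750 genes tested were. It was at 1.06, 1.02 and 0.350 CPM in left ELE and at 0.260, 0.39 and 0.156 CPM in left sedentary mice, which overlapped, with a log2 fold change of 1.58 (standard error 0.608, adjusted p = 0.960, edgeR). The exact permutation test gave p = 0.200, where 0.1 is the smallest that 3 mice against 3 allow. The call was lost without any of 4 libraries (ELE mice TG7.3.2 and TG9.1.4, sedentary mice TG7.3.4 and TG9.2.4), with log2 fold changes of 1.33, 1.39, 1.56 and 1.31. On the right *Irf7* was at 0.658, 0.214 and 0.195 CPM against 0.218, 0.464 and 0.341 CPM, a log2 fold change of 0.05 (standard error 0.739).
*Ifitm3* was past the threshold on the right in the direction opposite to SIT. It was at 2.59, 1.86 and 3.63 CPM in right ELE and at 4.04, 5.71 and 3.30 CPM in right sedentary mice, overlapping by 1 mouse of each group, with a log2 fold change of -0.69 (standard error 0.300, adjusted p = 1, edgeR) and an exact permutation p of 0.200. Of all 17570 genes 1.97% were past the threshold. Leaving out TG7.3.1, TG9.1.3, TG7.3.3 or TG9.1.1 gave -0.66, -0.48, -0.74 and -0.45 and ended the call. On the right, endothelial markers were lower in ELE mice (2 of 9 tested past the threshold, *Tek* and *Cldn5*, median log2 fold change -2.16). Their sum was at 42.8 CPM in the sedentary mouse TG7.3.3, and at 5.89 and 10.2 CPM in the other sedentary mice against 7.56 to 9.12 CPM in ELE mice, which overlapped. Lower in the fit were also red cell genes (3 of 4 tested) and choroid plexus genes (5 of 5 tested). Summed choroid plexus markers were at 1700 CPM in the sedentary mouse TG9.2.3, and at 97.3 and 150 CPM in the other sedentary mice against 61.8 to 106 CPM in ELE mice. Their part in the value of *Ifitm3* was not tested. On the left *Ifitm3* was at 2.93, 5.73 and 1.9 CPM against 4.13, 5.01 and 2.51 CPM and did not pass (log2 fold change -0.15, standard error 0.420).

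*Ifit1*, *Ifit3*, *Isg15* and *Bst2* were not past the threshold on the left, on the right, over both sides or in the interaction when all of these libraries were fitted. Over both sides the log2 fold changes were -0.38 for *Ifit1* (standard error 0.639), -0.14 for *Ifit3* (0.307), 0.50 for *Isg15* (0.488) and 0.08 for *Bst2* (0.233). *Ifit3* and *Ifit3b* share 31.7% of the 100-base stretches of *Ifit3*, so that reads can be split between them. *Isg15* ranged from 0.0885 to 0.764 CPM in right ELE and from 0.161 to 0.269 CPM in right sedentary mice, and *Ifit1* from 0.0916 to 0.319 against 0.108 to 1.14 CPM. All of these overlapped. Over the 9 genes, 6 had a positive log2 fold change on the left (median 0.36 against 0.004 over all genes), 3 on the right (median -0.07 against -0.005), and 6 over both sides (median 0.20 against 0). The interaction of exercise and side was past the threshold for 0 of the 9 (2.20% of all genes), and *Gbp3* had an interaction log2 fold change, right minus left, of -0.80 (standard error 0.678, adjusted p = 1, edgeR). At an unadjusted p under 0.05 alone (2.60% of all genes), and with DESeq2, the count was also 0 of the 9. Without TG7.3.1 it was 1, *Irf7* (-2.31), and without TG9.2.1 it was 1, *Isg15* (1.78).

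**Figure D2:**
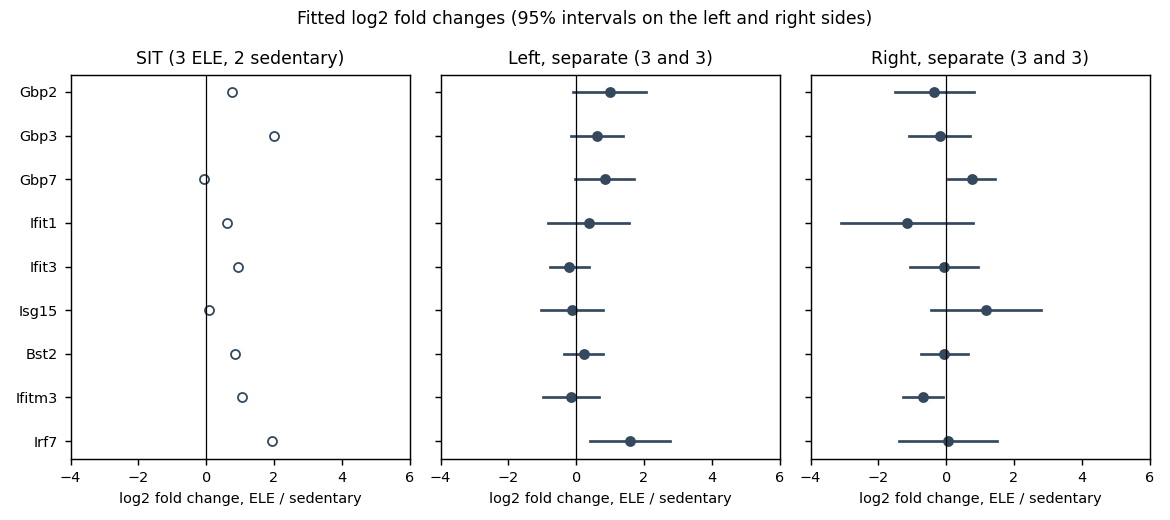
Fitted log2 fold changes of ELE against sedentary libraries for the 9 genes in SIT (open circles, with no interval, because the genes were chosen on this contrast) and on the left and right (filled circles with 95% intervals). The interval of *Gbp3* runs from -0.16 to 1.37 on the left and from -1.09 to 0.70 on the right.

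The wider interferon pathway was described from lists of genes. Of 20 ligand genes, 18 had no counts in any library, *Ifnk* had at most 1 count, and *Ifnz* at most 12, and 0 of the 20 could be tested. The receptor genes were expressed, with *Ifnar1*, a chain of the type I receptor, at 49.1 ± 1.51 CPM in left sedentary and 51.1 ± 2.57 CPM in right sedentary mice, and *Ifngr1*, a chain of the type II receptor, at 6.81 ± 0.926 and 6.40 ± 0.780 CPM (SD, n = 3). Of 19 receptor and signalling genes, 0 of 17 tested were past the threshold in SIT and on the right, and 1 of 17 on the left, beside 3.65%, 1.97% and 2.07% of all genes. None of the sensors of viral nucleic acid was past it in any of these 3 comparisons (0 of 9 in SIT, 0 of 11 on each side).
Of 92 further target genes of type I or type II interferon, 67 were tested in SIT and 3 were past the threshold, all higher in ELE mice, which was 1.54% for all genes called higher. Their median log2 fold change was 0.24 against 0.001 over all genes, and 49 of the 67 were positive. *Oasl2*, an oligoadenylate synthetase-like gene, was at 1.25, 6.17 and 3.79 CPM in ELE mice and at 0.654 CPM in NT6.305 and not counted in NT6.306. Like *Ifit1* and *Ifit3*, it was highest in TG7.4.1, and so was *Ifit3b* (4.13 CPM). Of the libraries compared, TG7.4.2 came next for *Oasl2*, *Ifit3* (3.39 CPM) and *Ifit3b* (2.54 CPM), above NT6.303 and both sedentary mice. It did not for *Ifit1* (0.154 CPM) or for *Isg15* (0.943 CPM, with NT6.305 at 1.02 CPM). In the TG7.4 mice exercise cannot be told apart from the first part of the mouse number. *Lgals9*, a galectin gene, had a log2 fold change of 1.47 (standard error 0.611) and *H2-D1*, a class I major histocompatibility gene, of 0.64 (standard error 0.273). Without NT6.303, 9 of these targets were past the threshold, and without TG7.4.1, 1 was. The share of all genes past it was not computed for these fits, so the counts cannot be set beside it. With all 8 SIT libraries 4 targets were past it (7.70% of all genes), *Oasl2* (log2 fold change 2.58) and *H2-D1* (0.51) higher and *Cd74* (-3.10) and *Irf8* (-1.52), both also expressed by microglia, lower in ELE mice, and *Lgals9* was not. Summed microglial markers were at 285 and 295 CPM in NT7.2.3 and NT7.2.4, and their part in these values was not tested. Within the 4 NT6 mice none of the 3 was past it, and *H2-Ab1* (4.92) and *Lgals3bp* (-0.84) were (6.65% of all genes). On the left *H2-D1* and *Lgals9* had log2 fold changes of -0.01 and 0.30, and on the right of 0.13 and -0.70, and neither passed.
On the left 3 of 57 tested targets rose and 1 fell (1.10% and 0.963% of all genes). *Ifit1bl2*, *Irgm2* and *Oasl2* rose by log2 fold changes of 1.43, 1.08 and 1.25, and *Ifit3b* fell by 0.93 on the log2 scale (standard errors 0.480, 0.368, 0.490 and 0.271, adjusted p = 0.960 for each, edgeR's quasi-likelihood test). *Ifit3b* was at 1.20, 0.884 and 1.24 CPM in ELE and at 2.22, 2.09 and 2.01 CPM in sedentary mice, which did not overlap (10.8% of all genes did not), and its call was kept without any 1 of the 6 libraries. *Irgm2*, a GTPase gene of the type II response, was at 1.23, 1.24 and 1.29 CPM against 0.763, 0.406 and 0.606 CPM, also without overlap, and lost its call only without TG9.1.2. *Ifit1bl2* and *Oasl2* each lost it in 3 of 6 such fits. On the right 0 of 60 tested targets were past the threshold, at an unadjusted p under 0.05 alone (2.78% of all genes) and with DESeq2 also 0, with a median log2 fold change of 0.01 against -0.005. Without TG7.3.1 the count was 3, without TG9.1.1 it was 2 and without TG9.1.3, TG7.3.3 or TG9.2.3 it was 1. Over both sides *Ifit1bl2* and *Irgm2* rose, 2 of 62 tested (0.797% of all genes rose), by log2 fold changes of 1.02 (standard error 0.365) and 0.79 (standard error 0.323). *Ifit1bl2* kept its call without any 1 of the 12 libraries and *Irgm2* in 8 of 12 fits. *Ifit1bl2* rested on 14 to 78 counts in these libraries. On the right it was at 0.738, 1.19 and 0.425 CPM in ELE mice and 0.677, 0.343 and 0.521 CPM in sedentary mice, which overlapped. Of the 3 targets past the threshold in SIT, *Oasl2* was past it on the left, with a log2 fold change of -0.21 on the right and 0.51 over both sides.

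**Figure D3:**
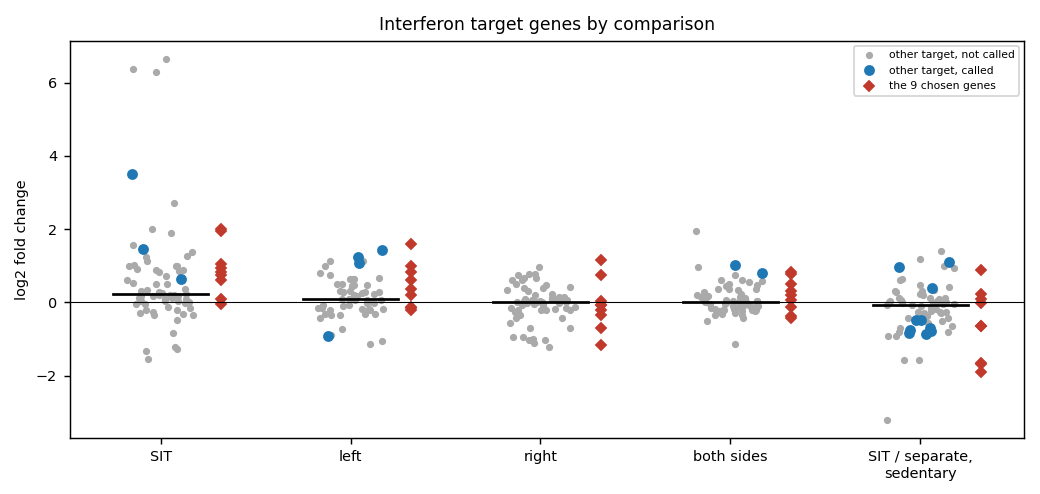
Log2 fold changes of the further interferon targets tested (grey and, where past the threshold, blue), their median (bar) and the 9 genes (red diamonds), for ELE against sedentary libraries in SIT, on the left, on the right and over both sides, and for SIT against separate isolation in sedentary mice. The median of the targets is 0.24 in SIT and between -0.06 and 0.10 in the other columns.

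The level of *Gbp3* in SIT was set beside that in separate isolation. The sedentary SIT libraries compared, at 0.846 and 0.946 CPM, lay below each of the 6 separately isolated sedentary libraries (1.70 to 6.80 CPM), while the 3 ELE SIT libraries (2.56 to 5.33 CPM) lay within that range. The log2 fold change of SIT against separate isolation in sedentary mice was -1.89 (standard error 0.482). *Ifitm3*, at 0.942 and 1.62 CPM in these SIT libraries, also lay below separate isolation (2.51 to 5.71 CPM, log2 fold change -1.68, standard error 0.337), but of its ELE SIT libraries 2 of 3 did as well (1.64, 2.50 and 3.85 CPM). These libraries are those of the SIT contrast on which the genes were chosen, and no test is given for the 9. With all 4 sedentary SIT libraries the values were -0.935 for *Gbp3* and -1.27 for *Ifitm3*. The other 7 had log2 fold changes between -1.64 (*Irf7*, 0.55 with all 4) and 0.89 (*Isg15*, 0.35 with all 4). Of all 18911 genes 15.5% were past the threshold in this comparison and 29.8% did not overlap. Isolation, hemisphere and mouse number cannot be told apart in it.
Of 63 other interferon targets tested, 3 were higher and 7 lower in SIT (5.52% and 9.97% of all genes). *H2-K1*, a class I gene, and the peptide transporter genes *Tap1* and *Tap2* were lower in SIT, with log2 fold changes of -0.69, -0.87 and -0.75 (adjusted p = 0.0131, 0.0406 and 0.0255, edgeR's quasi-likelihood test). *Tlr3*, a receptor for double-stranded RNA, was at 8.25 and 9.04 CPM in SIT and at 14.5 to 20.2 CPM in separate isolation, and *Psmb10*, an immunoproteasome subunit gene, was higher in SIT by 0.40 (adjusted p = 0.00132 and 0.0243, edgeR). With all 4 sedentary SIT libraries *H2-K1* was at -0.485 (adjusted p = 0.0481), while *Tap1* (-0.58, adjusted p = 0.13) and *Tap2* (-0.56, adjusted p = 0.133, edgeR) stayed past the study's threshold but lost an adjusted p under 0.05. *Psmb10* was then no longer past it. NT7.2.3 and NT7.2.4 were at 24.4 and 22.7 CPM, below the 25.3 to 32.7 CPM of separate isolation, while the libraries compared were at 36.7 and 42.2 CPM. *Tlr3* was at 7.75 and 6.73 CPM in those libraries, also below separate isolation. Astrocyte markers were lower in SIT (5 of 8 past the threshold, summed level 3300 to 3330 against 3920 to 6350 CPM), endothelial markers were lower for 2 of 10, and inhibitory neuron markers (6 of 6) and red cell genes (4 of 5) higher. Their part in the levels of *Gbp3*, *Ifitm3* and these targets was not tested.

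*Gbp3* varied among the mice of each separately isolated group, and it did not vary alone. Over the 12 separately isolated libraries it was highest in TG9.1.1 (right, sedentary, 6.80 CPM), TG9.1.4 (left, ELE, 6.39 CPM) and TG9.2.1 (right, ELE, 5.45 CPM), and between 1.70 and 3.30 CPM in the other 9. *Gbp2* was also highest in these 3, at 2.38, 2.69 and 2.23 CPM. Over the 12 libraries log2 CPM of *Gbp3* and *Gbp2* had a Pearson r of 0.852 (permutation p = 0.00032, adjusted 0.00256 over the 8 relations computed) and a Spearman rho of 0.839 (permutation p = 0.00113, adjusted 0.00904). Without TG9.1.1 and TG9.1.4, the libraries farthest from the median of *Gbp3*, r was 0.738 (n = 10, permutation p = 0.0124). Within the 9 libraries under 4 CPM of *Gbp3*, a division made after the values were seen, r was 0.565 (exact permutation p = 0.108). This division narrows the range of *Gbp3* itself, so a lower r within it cannot decide on the relation.
*Ifitm3* had an r of 0.717 (permutation p = 0.00869, adjusted 0.0336) and a rho of 0.797 (permutation p = 0.00281, adjusted 0.0112) with *Gbp3*, but r was 0.459 without those libraries (n = 10, permutation p = 0.183), where the relation no longer passed, 0.482 within the 9 under 4 CPM (exact permutation p = 0.187), and 0.894 over the 12 when each value was taken as the deviation from the mean of its side and exercise group. *Bst2* had an r of 0.695 (permutation p = 0.0126, adjusted 0.0336) and a rho of 0.497 (permutation p = 0.104, adjusted 0.208), and r was 0.195 without them. *Gbp7* (r = 0.625, adjusted permutation p = 0.0585) and *Isg15* (r = -0.594, adjusted permutation p = 0.0672) did not pass after adjustment, and the sign for *Isg15* was negative. The r of *Ifit1*, *Ifit3* and *Irf7* was 0.293, -0.088 and 0.369, with adjusted permutation p of 0.410, 0.792 and 0.315. The libraries that share the first part of a mouse number are too few, 4 each, for a value within them. The share of all genes as closely related to *Gbp3* over the 12 libraries was not computed. These relations are therefore not shown to be particular to the genes named.

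**Figure D4:**
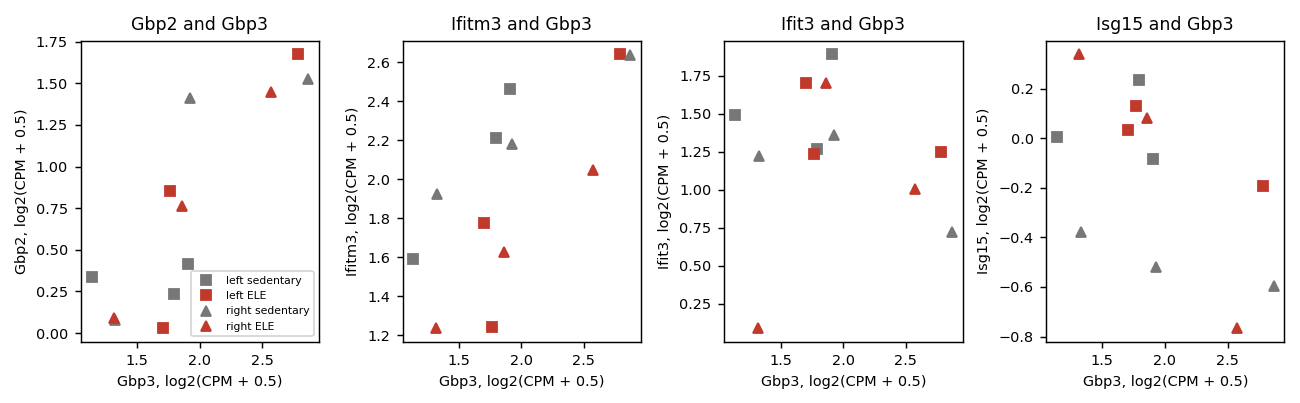
Log2(CPM + 0.5) of *Gbp2*, *Ifitm3*, *Ifit3* and *Isg15* against that of *Gbp3* in the 12 separately isolated libraries (squares left, triangles right, grey sedentary, red ELE). The 3 libraries at the right of each panel are TG9.2.1, TG9.1.4 and TG9.1.1, where *Gbp2* is at 2.23, 2.69 and 2.38 CPM.

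The same 3 libraries stood apart for *Socs3*, a feedback inhibitor of JAK-STAT signalling and the receptor or signalling gene past the threshold on the left. *Socs3* was at 23.8 CPM in TG9.1.4, 7.69 CPM in TG9.2.1 and 7.46 CPM in TG9.1.1, and at 0.486 to 1.36 CPM in the other 9 separately isolated libraries. In SIT it was at 43.4 CPM in NT6.304 and 6.89 CPM in NT7.2.3, both left out by the study, and at 0.570 to 1.49 CPM in the other 6. On the left it rose by a log2 fold change of 3.83 (standard error 1.23, edgeR's adjusted p = 0.960). The value was 0.73 without TG9.1.4 and 3.685 without TG7.3.4, and in neither fit was it past the threshold. *Gfap*, the intermediate filament gene of astrocytes, was at 3900, 3330 and 4060 CPM in TG9.1.4, TG9.2.1 and TG9.1.1 and at 1260 to 1950 CPM in the other 9, and the water channel gene *Aqp4* at 351, 308 and 317 against 165 to 227 CPM. The glutamate transporter gene *Slc1a3*, also expressed by astrocytes, was at 591, 613 and 513 CPM in the 3 and at 591 to 752 CPM in the other 9, and the gap junction gene *Gja1* at 119, 180 and 136 against 180 to 236 CPM. In NT6.304, *Gfap* was at 3230 CPM, where the other 7 SIT libraries were at 700 to 2470 CPM. *Gbp3* was at 2.45 CPM in NT6.304, the lowest of the 4 ELE SIT libraries. Summed microglial markers in the 3 were at 15.3, 9.81 and 10.5 CPM, against 9.35 to 12.3 CPM in the other 9, and endothelial ones at 8.05, 7.88 and 5.89 CPM, against 7.09 to 42.8 CPM. These 3 libraries include ELE and sedentary mice, and the part of astrocyte RNA in the level of *Gbp3* was not tested. *Gbp3* was at 5.33 CPM in TG7.4.2, the highest ELE library of SIT, with *Socs3* at 0.904 CPM and *Gfap* at 1750 CPM.

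Over all 20 libraries and 14225 genes at 1 CPM or more on average, the genes whose log2 CPM was most like that of *Gbp3* were *Ifitm3* (Pearson r = 0.824), *Zfp324* (0.789), *Gm37277* (0.788), *Nup93* (0.774) and *Dsel* (0.772). With Spearman's rho *Ifitm3* was again first (0.817) and 3 of the 5 were shared. *H2-K1* ranked 10 (r = 0.735), *Bst2* 154 (0.614), *Gbp2* 497 (0.528), *Oasl2* 587 (0.513), *Gbp7* 1165 (0.436) and *Ifit3* 7366 (-0.018). Of 32 further interferon targets compared, 1 was among the first 20, and the r of the others went down to -0.542 (*Ly6e*). This order is a description over libraries that include the SIT contrast, with no p.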

How the data were processed

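TRAP-seq counts of 20 libraries were analysed, each from 1 mouse. The authors aligned reads with STAR 2.7.3a, removed duplicates with Picard 1.87, counted them on GRCm38 genes taking strand into account, and deposited whole-number counts without normalization. Columns are named by mouse number and were assigned to the labelled groups with the study's sample table. A wild-type table was not used. SIT libraries were those the study compared, the only subset of 24 that gave its mean counts for 633 of 633 genes. Chi-square per gene was at least 18.9 in all 24 same-group pairs, beyond counting noise, so each library counted as 1 mouse. Libraries of 45895097 to 65767802 counts set a floor of 3 counts, which covers counting error only.

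Counts were scaled with TMM, filtered with filterByExpr and tested with edgeR 4.0.16 (R 4.3.3; quasi-likelihood, Benjamini-Hochberg over all genes), fitting only the groups compared, with side as a term over both sides. Genes past the threshold had an unadjusted p under 0.05 and a fold change above 1.31, as in the study. The standard error is the log2 fold change over the root of F, 95% intervals use the normal quantile and so are narrower than the test implies, and p-values measure the spread between these mice. The 9 genes were also compared by exact permutation (two-sided, log2(CPM + 0.5)), and relations by 100000 permutations (scipy). On simulated counts with known changes edgeR recovered 86.6% of changed genes in the SIT design, 91.4% on the left, 89.9% on the right, 94.4% over both sides, 76.4% between isolations and 55.3% in the interaction. These shares hold for the spread and changes put into those counts. Recovery at the spread between these mice was not tested, so the shares give no power for the 9 genes. Promoters came from RefSeq, gene positions from GENCODE.

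The 9 genes and all lists were chosen with earlier results of these data known. Named besides the 9 are, per comparison, at most 5 pathway genes past the threshold with the smallest p, the neighbours of *Gbp3*, and the 5 genes most like it. *Gfap*, *Aqp4*, *Slc1a3* and *Gja1*, of the astrocyte list, *Ifnar1*, *Ifngr1*, and the values of targets in comparisons where they were not past the threshold were chosen after values were seen. Alternatives were DESeq2 1.42.0, median-of-ratios scaling, no filter, a fold change of 1.3, other SIT libraries, a mouse-number block and leaving out each library.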

Additional observations from a re-analysis of the deposited data

Results flagged for a closer look

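In the SIT groups of 4 libraries a single library lay far from the others for 4 of the 9 genes. The 9 genes in 2 groups made 18 cases, and chance alone marks about 1 case in 20. These libraries include those on which the genes were chosen, so that the gaps are given as a description. The sedentary library of NT7.2.3 was highest for *Gbp3* (3.95 CPM, the others 0.846 to 1.22 CPM, its gap taking 0.88 of the range) and for *Irf7* (1.60 CPM, the others 0 to 0.192 CPM, gap 0.88 of the range). Summed microglial markers were at 285 CPM in this library and at 295 CPM in NT7.2.4. In NT7.2.4 *Gbp3* was at 1.22 CPM and *Irf7* had no counts, and the part of microglial RNA was not tested. The ELE library of TG7.4.1 was highest for *Ifit1* (1.98 CPM, the others 0.154 to 0.233 CPM, gap 0.957 of the range), as it was for *Ifit3* and *Oasl2*. The sedentary library of NT6.305 was lowest for *Bst2* (0.692 CPM, the others 2.18 to 2.33 CPM, gap 0.909 of the range).

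The interaction of exercise and side was past the threshold, on its unadjusted p, for 2 of 62 further interferon targets and 1 of 18 receptor and signalling genes, beside 2.20% of all genes. The interaction log2 fold change, right minus left, was -0.62 for *Parp12*, 1.01 for *Ifit3b* and -3.88 for *Socs3*, each with an adjusted p of 1 (edgeR's quasi-likelihood test). Leaving out single libraries kept the call in 7, 4 and 5 of 12 fits.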

How the results depend on the processing

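The range of totals, 45895097 to 65767802 counts, puts 3 counts at 0.0458 to 0.0655 CPM, so that *Irf7*, *Ifit1* and *Isg15* rested on few counts in several libraries. Of the alternatives other than leaving out a library, 320 results were counted as kept, 16 as moved further, 5 as reversed, 5 as fallen below the threshold and 1 as risen past it. Kept meant the same direction and side of the threshold. For counts, and for values in SIT and between isolations, it meant that they stayed close. In those 2 comparisons only genes past the threshold could count as reversed. Other changes of sign there are among the 320 or the 16, such as *Ifit1* in SIT at -0.16 with all 8 libraries. In SIT, where 3 of the other targets were past the threshold, DESeq2 gave 5, no filter 6, all 8 libraries 4 (2 of them lower) and the 4 NT6 mice 2. Without a filter 2 of the 9 genes passed on the right (against 1) and 5 of the other targets over both sides (against 2). The share of all genes past the threshold was not computed with DESeq2 or without a filter, so these counts cannot be set beside it. With all sedentary libraries *Gbp2*, *Ifit3* and *Irf7* turned in the comparison of isolations to 0.057, 0.43 and 0.55. A replicate block on the start of the mouse number gave 0 of the 9 on the right (*Ifitm3*, at -0.70, was no longer past the threshold), *Irf7* at -0.14 and *Bst2* at 0.042 there, *Gbp7* at 0.15 in the interaction and 4 other targets in it (against 2), and changed no other call of the 9. Libraries sharing that start did not deviate together (r of deviations -0.018 to 0.093 on the left, -0.025 to 0.113 on the right), so the numbers were not taken as pairs. Within the libraries under 4 CPM of *Gbp3*, its r turned to -0.131 with *Gbp7* and to 0.485 with *Ifit3*. This and the deviations from group means were chosen after seeing the data. The cause of these shifts was not tested.

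Leaving out 1 library at a time, the 9 genes past the threshold numbered 0 to 2 on the left, 0 to 1 on the right and 0 to 1 in the interaction, and the other targets 1 to 9 in SIT, 2 to 6 on the left, 0 to 3 on the right, 1 to 4 over both sides, 0 to 4 in the interaction and 7 to 16 between isolations. The share of all genes past the threshold was not computed for these fits, so a change in these counts cannot be told from a change over all genes. On the left *Gbp2* and *Gbp7* passed without TG7.3.2. On the left the log2 fold changes that changed sign turned to -0.082 for *Bst2*, -0.069 for *Ifit1*, 0.027 for *Ifit3*, 0.076 to 0.156 for *Ifitm3* and 0.039 to 0.068 for *Isg15*. On the right they turned to 0.398 for *Bst2*, 0.02 for *Gbp2*, 0.094 to 0.406 for *Gbp3*, 0.698 for *Ifit1*, 0.104 to 0.338 for *Ifit3* and -0.732 to -0.181 for *Irf7*. Over both sides they turned to between -0.069 and -0.03 for *Bst2*, -0.08 for *Gbp2*, -0.065 for *Gbp3*, 0.497 for *Ifit1* and 0.036 for *Ifit3*. In the interaction they turned to 0.027 to 0.189 for *Bst2*, 0.065, 0.266 and 0.565 for *Gbp7*, 0.338 for *Ifit1*, -0.502, -0.094 and -0.083 for *Ifit3* and 0.009 for *Ifitm3*. Between isolations they turned to -0.474 to -0.008 for *Gbp7*, -1.307 for *Ifit1* and 0.031, 0.162 and 0.343 for *Ifit3*.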
